A study of Mus musculus with 8 samples.

Results

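The activin and inhibin axis was followed through 10 genes in RNA-seq of mouse lung endothelial cells, out of 34899 genes in the deposited table. They encode ligand subunits (Inhbb, Inhba), secreted binding proteins (Fst, Fstl3), receptors (Acvr1, Acvr1b, Acvr2a, Acvr2b) and signal transducers (Smad2, Smad3). The 10 were taken by gene name around Inhbb, which was selected on its normalised counts in HF against LF. The values of HF against LF are therefore given for the 10 genes as a description and without a test. The cells came from lungs of female C57BL6 mice and were sorted by flow cytometry as CD45- CD31+, with 4 HF and 4 LF libraries. The labels do not spell out HF and LF, or give an age or the length of a treatment. The series title places the mice in a study of obesity, neutrophil oxidants and vascular inflammation, and the comparison asks how transcripts of the lung endothelium differ between HF and LF mice.

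Activins are dimers of β subunits, among them βA, the product of Inhba, and βB, the product of Inhbb. Inhibins pair a β subunit with the α subunit encoded by Inha and oppose activin. Activin binds a type II receptor, ACVR2A or ACVR2B, which recruits a type I receptor such as ACVR1B (ALK4). The complex phosphorylates SMAD2 and SMAD3. Follistatin (Fst) and follistatin-like 3 (Fstl3) wrap the ligand outside the cell and keep it from its receptors. In blood vessels the type II receptors are shared with bone morphogenetic proteins, whose signals pass through other type I receptors, among them ACVR1 (ALK2).

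The libraries held 10631506 to 20781564 reads assigned to genes, and values below are the authors' normalised counts, which correct for depth and not for gene length. All 8 endothelial markers on the list (Pecam1, Cdh5, Tie1, Tek, Kdr, Egfl7, Emcn, Cldn5) were present in every library. Their summed level was 145634 to 165861 in HF and 110343 to 177978 in LF, and 8 of 8 had a higher mean log2 value in HF, which became 1 of 8 without LF 1 and LF 2 and stayed at 8 of 8 without LF 3 and LF 4. Transcripts of other lung cells were present too. Summed levels in HF and LF were 3340 to 5885 and 5627 to 7070 for 6 leukocyte markers, 6645 to 11926 and 8759 to 14685 for 5 epithelial markers, 844 to 2161 and 1256 to 2693 for 6 fibroblast and mesothelial markers, and 1398 to 1750 and 1701 to 2895 for 5 smooth muscle and pericyte markers. No marker was at 0 in every library, and 1 of the 22, a leukocyte gene, was at 0 in some. Only 1 of the 22 had a higher mean log2 value in HF, against 5 when LF 1 and LF 2 were left out. In bulk libraries, fewer cells of a type and less RNA per cell cannot be told apart. The LF libraries did not lie together. On the first principal component of all tested genes, LF 1 and LF 2 (pair A) lay at -56.4 and -50.9, away from the other 6 libraries at -6.79 to 39.6. The HF libraries spread on it too, at -6.79, 31.7, 3.26 and 39.6 for HF 1 to HF 4. On the second component, LF 3 and LF 4 were the ones apart, at -38.5 and -34.2, with the other 6 at -1.41 to 29.6. Differences are therefore also given without pair A and without LF 3 and LF 4 (pair B). The pairs were picked from these same libraries, and leaving out either keeps 2 LF libraries that lay close together. The spread of LF is then understated, so p values without a pair can be too small and are a description only.

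Inhbb was the activin β-subunit gene detected above a trace in these cells. Its normalised counts were 248, 393, 227 and 265 in HF 1 to HF 4, and 87.8, 61.9, 115 and 59.9 in LF 1 to LF 4. The lowest HF library was above the highest LF library, and HF 2 was the highest of all. The means were 283 ± 74.7 in HF and 81.3 ± 26.1 in LF (SD, n = 4 each), a log2 difference of 1.81 with a standard error of 0.25. On the scale of fold change this is 3.50, with a 95% interval from 2.41 to 5.07. Only 1 of the 17067 genes tested had a larger log2 difference in favour of HF. Inhbb was selected on this contrast, and neither the interval nor the rank takes that into account. The authors' deposited table gives a log2 fold change of 1.80 for Inhbb. Without pair A the log2 difference was 1.72, and without pair B it was 1.89. The endothelial markers had their higher means in HF, as Inhbb did, and the markers of other cell types mostly in LF. Summed endothelial levels were 110343, 117332, 155932 and 177978 in LF 1 to LF 4, beside 87.8, 61.9, 115 and 59.9 for Inhbb. In HF the sums were 145634 to 165861, beside 227 to 393 for Inhbb. The part of the share of endothelial RNA in the Inhbb values was not tested.

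Inhba was near the limit of detection. Across HF 1 to HF 4 it had 4, 1, 0 and 0 reads, and across LF 1 to LF 4 it had 5, 9, 4 and 3 reads, 26 in all against 1563 for Inhbb. The groups overlapped, since HF 1 lay above LF 3 and LF 4 in normalised counts. The count of 0 allows up to 3 reads, or 2.91 normalised counts in HF 3 and 2.36 in HF 4, counting error only. Inhba did not reach the filter of 10 normalised counts in 4 libraries, so it has no value in the fit, while the other 9 genes passed. In normalised counts per kilobase of exon, LF libraries held 19.1 ± 6.13 for Inhbb and 0.854 ± 0.349 for Inhba (SD, n = 4). The libraries with 0 reads of Inhba, HF 3 and HF 4, had 234 and 336 reads of Inhbb.

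The upstream windows of Inhbb and Inhba are shown because these 2 β-subunit genes lie far apart in level. Each window holds the 250 bases before the RefSeq start site in GRCm38.p6, read 5′ to 3′ on the gene's strand, with CpG dinucleotides in capitals. Inhbb is on the minus strand (chr1:119422249-119422498) and Inhba on the plus strand (chr13:16011601-16011850).
Inhbb: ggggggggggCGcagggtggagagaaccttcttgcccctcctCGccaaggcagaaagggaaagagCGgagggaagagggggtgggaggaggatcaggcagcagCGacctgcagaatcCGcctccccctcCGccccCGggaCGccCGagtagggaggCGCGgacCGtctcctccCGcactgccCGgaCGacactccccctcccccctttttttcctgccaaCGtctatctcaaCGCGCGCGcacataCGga
Inhba: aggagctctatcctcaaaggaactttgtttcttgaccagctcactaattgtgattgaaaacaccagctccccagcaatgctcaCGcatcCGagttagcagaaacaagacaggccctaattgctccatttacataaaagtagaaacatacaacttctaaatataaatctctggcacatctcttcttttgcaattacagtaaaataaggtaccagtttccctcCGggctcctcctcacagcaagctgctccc
The Inhbb window held 21 CpG dinucleotides and 68% G and C, where 83.7% of all 32851 RefSeq promoter windows of this length held fewer CpG. The Inhba window held 3 CpG and 43.2% G and C, where 29.0% of windows held fewer CpG. The letters CAGAC, a sequence bound by SMAD proteins, were searched on both strands and had no match in either window, where 42.2% of all windows hold a match. Shorter or other sequences bound by SMAD proteins were not searched. TGACG, a short site of the cyclic AMP response element, also had no match in either, where 17.8% of windows hold it. TATAAA was matched in the Inhba window and not in that of Inhbb, where 12.4% of windows hold it. These matches describe letters in the windows only, since the RNA-seq data do not measure binding.

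**Figure D1:**
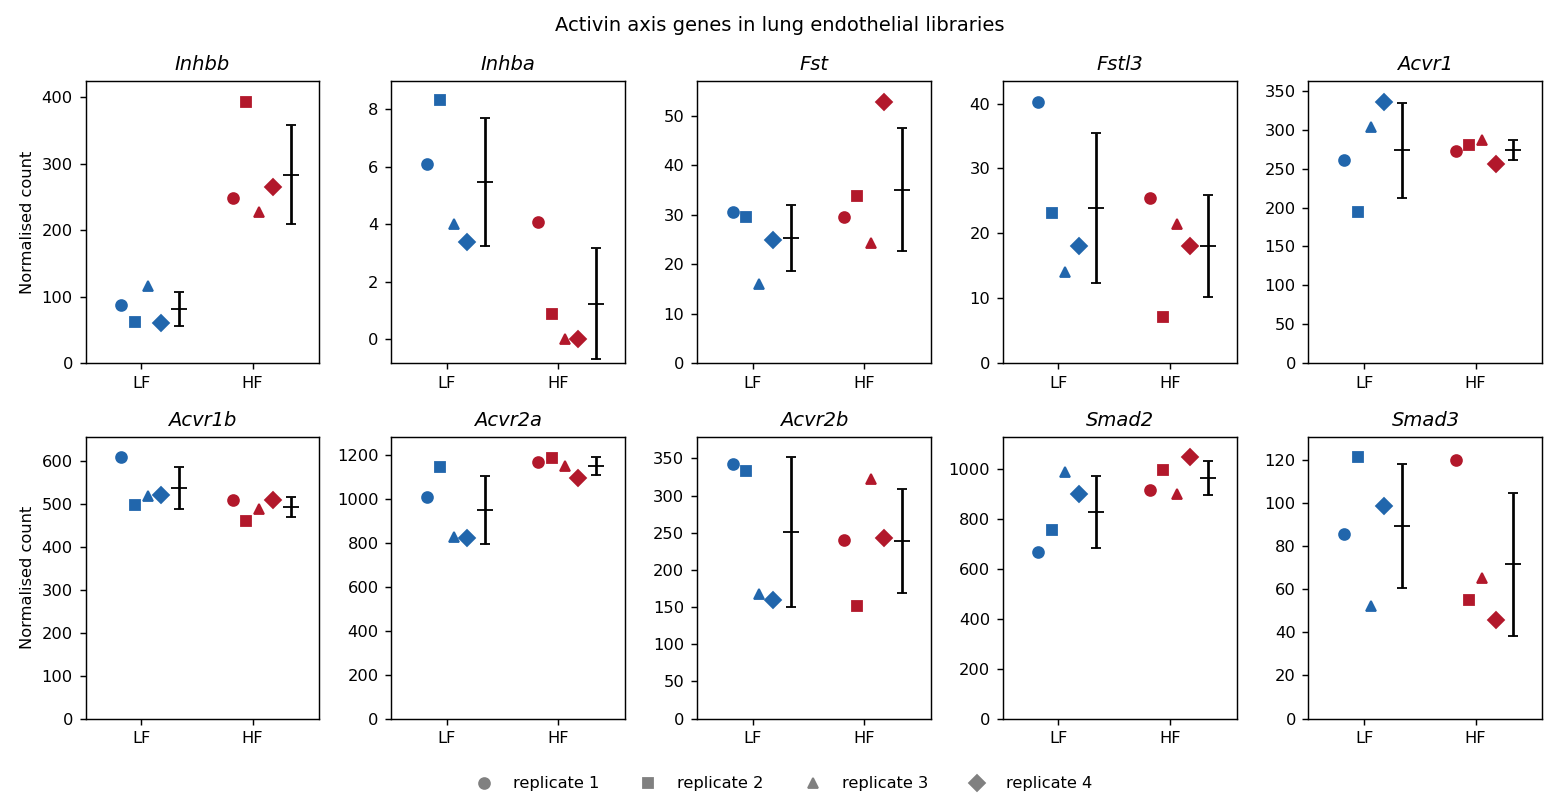
Normalised counts of the 10 activin axis genes, with 1 panel per gene, LF libraries in blue, HF libraries in red, marker shapes for the replicate number, and black bars for mean and SD (n = 4). For Inhbb the HF libraries lie between 227 and 393 and the LF libraries between 59.9 and 115, while the groups overlap in the other 9 panels.

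The binding proteins that hold activin were expressed at low levels. Fst, follistatin, was at 29.5, 33.8, 24.3 and 52.8 normalised counts in HF 1 to HF 4 and at 30.5, 29.6, 16.1 and 24.9 in LF 1 to LF 4. HF 4 was the highest and LF 3 the lowest, and the remaining libraries of the groups interleaved. Its log2 difference was 0.44 (SE 0.33) with all 8 libraries, 0.72 without pair A, and 0.16 without pair B. Fstl3, the related antagonist, was at 25.4, 7.11, 21.4 and 18.1 in HF 1 to HF 4 and at 40.3, 23.1, 14.1 and 18.1 in LF 1 to LF 4. HF 2, the library highest in Inhbb, was the lowest in Fstl3, with 8 reads. The Fstl3 log2 difference was -0.41 (SE 0.45), moving to 0.04 without pair A and to -0.86 without pair B. Exons of Fst overlap those of Gm47040, and exons of Fstl3 those of Prss57, in each case on the other strand. The sources used here do not give the strand setting.

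Of the type II receptors, Acvr2a was the more abundant. Its normalised counts were 1171, 1188, 1150.3 and 1097 in HF 1 to HF 4 and 1013, 1145, 828 and 824 in LF 1 to LF 4. The HF libraries were close together, LF 2 lay among them, and LF 3 and LF 4 were the lowest. Means were 1152 ± 39.4 and 953 ± 156 (SD, n = 4 each), a fold of 1.22 (95% interval 1.0043 to 1.48), and the log2 difference of 0.29 became 0.48 without pair A and 0.10 without pair B. Exons of Acvr2a overlap Orc4 on the other strand. Acvr2b, the other type II receptor, was at 241, 151, 323 and 243 in HF 1 to HF 4 and at 343, 333, 168 and 159 in LF 1 to LF 4. Its LF values fell into a high pair, LF 1 and LF 2, and a low pair, LF 3 and LF 4, with most HF libraries between them. The log2 difference was -0.02 (SE 0.29) with all libraries, 0.50 without pair A, and -0.55 without pair B, so its sign depended on which LF libraries were used.

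Acvr1b, a type I receptor of activin, varied little. It was at 509, 460.3, 489 and 509 in HF 1 to HF 4 and at 608, 498, 517 and 521 in LF 1 to LF 4. LF 1 was the highest and HF 2 the lowest, and the groups overlapped only through LF 2. Its spread within groups, a pooled SD of 0.10 on the log2 scale, was larger than that of only 3.25% of the genes tested. Its fold was 0.920 (95% interval 0.768 to 1.101), again a description and not a test. Acvr1, the type I receptor used mainly by bone morphogenetic proteins, was at 273, 281, 287 and 256 in HF 1 to HF 4 and at 261, 195, 303 and 336 in LF 1 to LF 4. The HF libraries lay inside the range of the LF libraries. The Acvr1 log2 difference was 0.03 (SE 0.17) with all libraries, -0.22 without pair A, and 0.28 without pair B.

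The transducers were unequal. Smad2 was at 919, 999, 902 and 1048 in HF 1 to HF 4 and at 669.8, 757, 989 and 900.2 in LF 1 to LF 4. LF 1 and LF 2 were the lowest, while LF 3 and LF 4 were at or near the level of the HF libraries. The log2 difference was 0.24 (SE 0.14), and it was 0.03 without pair A and 0.44 without pair B. Smad3 was at 119.9, 55.1, 65.1 and 45.7 in HF 1 to HF 4 and at 85.4, 121, 52.2 and 98.4 in LF 1 to LF 4. HF 1 and LF 2 were the highest, and the other HF libraries and LF 3 formed the low end. The Smad3 log2 difference was -0.35 (SE 0.33), which was -0.10 without pair A and -0.60 without pair B. The 4 libraries highest in Smad3 (HF 1, LF 1, LF 2 and LF 4) were also the 4 with the highest summed level of fibroblast and mesothelial markers and of smooth muscle and pericyte markers. This was seen after the values were known, in comparisons of 10 genes with 5 marker lists, and the part of other cells in the Smad3 level was not tested.

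**Figure D2:**
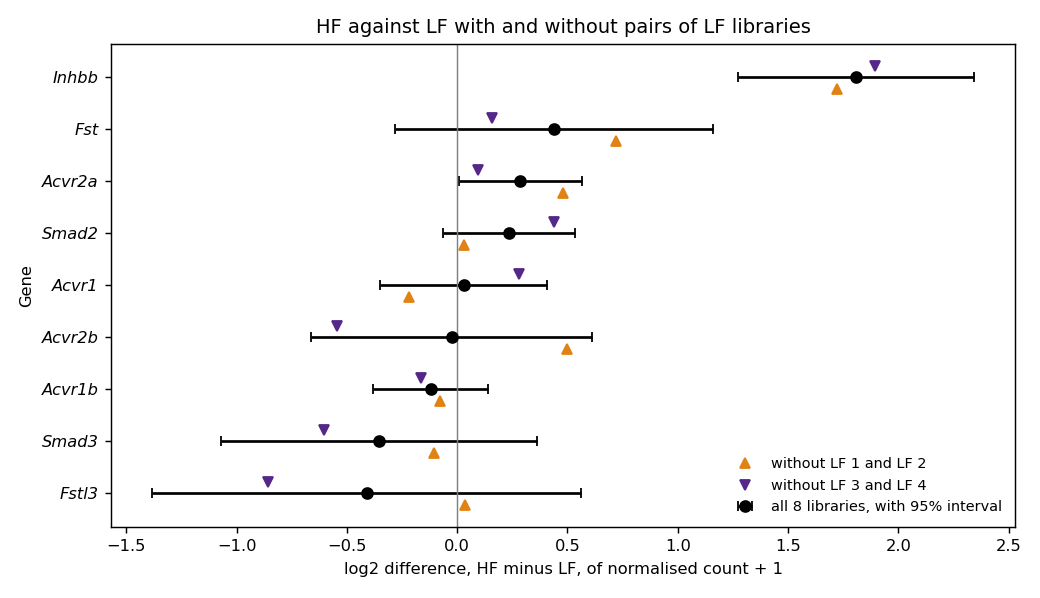
Log2 difference, HF minus LF, of the 9 tested genes with all 8 libraries (black, with 95% interval), without pair A, LF 1 and LF 2 (orange), and without pair B, LF 3 and LF 4 (purple). The intervals are not adjusted for the number of genes and are a description only. Inhbb stays between 1.72 and 1.89, while Acvr1, Acvr2b and Fstl3 lie on different sides of 0 depending on the LF libraries used.

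Among the 9 tested genes, 5 were higher and 4 lower on average in HF, with a median log2 difference of 0.03, where 53.2% of all tested genes were higher on average in HF and the median of all was 0.02. Without Inhbb, the other 8 divided 4 to 4, between -0.41 and 0.44. Groups did not overlap in 1 of the 9, Inhbb, where 5.43% of all tested genes did not overlap, namely 3.47% higher in HF and 1.96% lower. At a Benjamini-Hochberg adjusted p under 0.05, limma called 0 of the 9, as it called 0 of all 17067 genes (0% called). At an unadjusted p under 0.05 it gave 11.0% of genes, edgeR's quasi-likelihood test called 0 genes, and DESeq2 called 2.34% of the genes it gave an adjusted p and 1 of the 8 activin axis genes among them, Inhbb. Without pair A limma called 2 of the 9, Inhbb and Acvr2a, where 3.76% of all genes were called, and without pair B it called Inhbb and Smad2, where 20.0% were called. These calls come from the contrast that chose the genes, and nothing is read from them. The coefficient of variation over libraries was lower in HF than in LF in 7 of the 10 genes, as it was in 71.3% of all tested genes.

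Levels can be compared between genes after division by exon length. In normalised counts per kilobase of exon, the means over 8 libraries ran from Acvr2a at 185 ± 26.3 through Acvr1b (116 ± 9.62), Smad2 (102 ± 14.5), Acvr2b (62.4 ± 20.5), Acvr1 (56.7 ± 8.44), Inhbb (42.8 ± 28.1), Smad3 (14.5 ± 5.47), Fstl3 (8.56 ± 3.95) and Fst (6.57 ± 2.31) to Inhba at 0.524 ± 0.464 (SD, n = 8). The receptors and Smad2 thus formed the upper end, and the antagonists and Inhba the lower end. Each of the 9 pairs of neighbours in this order was compared within libraries by an exact two-sided permutation test over sign flips, adjusted by Benjamini-Hochberg over the 9. The order was taken from the means of the same 8 libraries, so the p values describe how steady each step was over these libraries and do not test the order independently. For the 2 steps with Inhbb, which was chosen by its counts, no p value is given, but both count in the adjustment. Acvr1 was above Inhbb in 5 of 8 libraries and Inhbb above Smad3 in 6 of 8. Acvr2a was above Acvr1b in 8 of 8 libraries, by a mean log2 difference of 0.66 ± 0.28 (exact adjusted p = 0.0352). Smad3 was above Fstl3 in 7 of 8, by 0.80 ± 0.62 (exact adjusted p = 0.0469). Fst was above Inhba in 8 of 8, by 3.88 ± 1.75 (exact adjusted p = 0.0352). Smad2 was above Acvr2b in 7 of 8, by 0.77 ± 0.66, a difference larger than its SD (exact p = 0.0234). This step missed the threshold after adjustment over the 9 pairs, which include the 2 with Inhbb (exact adjusted p = 0.0527). For the other 3 pairs without Inhbb the mean difference was smaller than its SD, with exact adjusted p values from 0.117 for Acvr1b above Smad2 to 0.727 for Acvr2b and Acvr1. With 7 libraries the smallest exact p is 0.0156, and leaving out any single library other than LF 1 left 0 of the 3 calls, while leaving out LF 1 gave 4.

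By exon length, the position of Inhbb in that order differed between the groups. Inhbb was selected on HF against LF, so its position and the ratios below restate that choice and are a description only. Its level was 66.6 ± 17.5 per kilobase in HF, where it was the fourth of the 10, and 19.1 ± 6.13 in LF, where it was the sixth (SD, n = 4 each). In HF it stood beside Acvr2b (60.9 ± 17.8) and Acvr1 (56.8 ± 2.75), and in LF it stood beside Smad3 (16.1 ± 5.19). The change of place depends on the length used. Acvr1 and Acvr2b have 4829 and 3928 bases of exon but longest transcripts of 3293 and 3175, while Inhbb has 4255 by both. With the longest transcript as the length, both receptors lie above Inhbb in HF as in LF, and Inhbb does not change place. The ratio of Inhbb to Fst, ligand subunit to antagonist, both per kilobase, was 9.07, 12.5, 10.1 and 5.41 in HF 1 to HF 4 and 3.11, 2.26, 7.75 and 2.598 in LF 1 to LF 4. Inhbb was above Fst in every library, and the ranges of HF and LF overlapped through HF 4 and LF 3. The ratio of Inhbb to Fstl3 ran from 5.61 to 31.7 in HF and from 1.25 to 4.72 in LF, with the top value in HF 2, where Fstl3 rested on 8 reads.

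Paralogous members kept their order within each library. Acvr2a exceeded Acvr2b by 2.04 to 5.43 times, Acvr1b exceeded Acvr1 by 1.70 to 2.79 times, and Smad2 exceeded Smad3 by 3.95 to 14.5 times per kilobase over the 8 libraries. The ratio of Smad2 to Smad3 varied most, with the lowest value in LF 2 and the highest in HF 4.

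**Figure D3:**
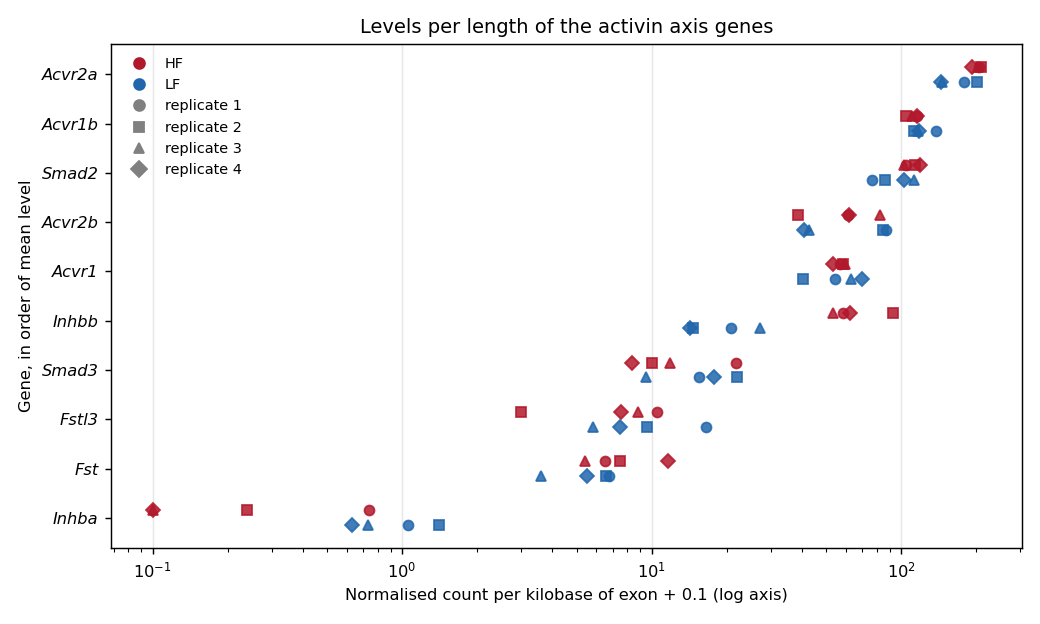
Normalised counts per kilobase of exon, plus 0.1, on a log axis for the 10 genes in order of their mean, with HF libraries in red, LF libraries in blue and marker shapes for the replicate number. Inhbb has HF values from 53.4 to 92.3 beside those of Acvr2b and Acvr1 and LF values from 14.1 to 27.1, and Inhba lies below all other genes.

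The wider pathway was read from 5 lists of genes other than the 10, 54 in all, of which 50 had a row and 43 were tested. limma called 0 of the 43 at a Benjamini-Hochberg adjusted p under 0.05, and edgeR's quasi-likelihood test called 0. At an unadjusted p under 0.05, limma gave 4 higher and 1 lower in HF, where 6.36% and 4.67% of all tested genes passed. DESeq2 called 2, both higher, where it called 1.82% of genes higher. Over the 43 genes, 30 were higher on average in HF with a median log2 difference of 0.07, and without pair A it was 20 of 43 with a median of -0.02. Groups did not overlap in 2 of the 43, both higher in HF, where 3.47% of all tested genes did not overlap with HF higher and 1.96% with HF lower. The genes below are those with the smallest unadjusted p in each list and those whose groups did not overlap.

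Among other ligands, Inha, the inhibin α subunit, was at 7.11, 15.1, 2.91 and 1.58 normalised counts in HF 1 to HF 4 and 15.9, 17.6, 10.04 and 5.65 in LF 1 to LF 4. Its groups overlapped, and its log2 difference was -1.03 (limma adjusted p = 0.548). Nodal and Lefty1, ligands of the same receptors and their antagonist, had log2 differences of 0.05 and 0.20 (limma adjusted p = 0.965 and 0.744). Both turned sign without pair A, to -0.14 for Nodal and -0.08 for Lefty1, and were 0.23 and 0.49 without pair B. Inhbe, another β-subunit gene, was at 0 to 0.972 in HF and 0 to 2.26 in LF and was not tested. The list of 10 had 4 genes tested, with a median of 0.04, which was -0.11 without pair A and -0.13 without pair B.

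Convertases cut the activin precursor to release the mature dimer. Pcsk5, a proprotein convertase, was at 2187, 2152, 2273 and 2332 in HF 1 to HF 4 and 1576, 2209, 1249 and 1426 in LF 1 to LF 4, so LF 2 lay among the HF values. Its log2 difference was 0.50 (limma adjusted p = 0.263), which became 0.74 without pair A (limma adjusted p = 0.00388) and 0.26 without pair B (0.159). Pcsk7 did not overlap between groups, at 1030.4 to 1226.5 in HF and 819 to 959 in LF, a log2 difference of 0.27 (limma adjusted p = 0.411), and its exons overlap Rnf214 and Tagln on the other strand. Furin, the convertase best known for this cut, was at 606 ± 77.8 and 578 ± 73.3 (SD, n = 4 each). Wfikkn1, a secreted inhibitor of related ligands, had a log2 difference of -0.23 (limma adjusted p = 0.790), which was 0.14 without pair A and -0.59 without pair B. The list had 5 of 6 genes tested, 3 of them higher on average in HF, and a median of 0.07. Without pair A it was 5 of 5 with a median of 0.17, and without pair B 3 of 5 with 0.05.

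Of the other receptors, co-receptors and decoys, 6 of 9 were tested, 5 were higher on average in HF and the median was 0.09. The direction depended on the LF libraries: 1 of 6 was higher without pair A, with a median of -0.03, and 5 of 6 without pair B, with a median of 0.22. Eng, endoglin, had a log2 difference of 0.37 (limma adjusted p = 0.531) with exons that overlap Fpgs on the other strand. It moved to 0.02 without pair A and 0.72 without pair B (limma adjusted p = 0.977 and 0.00360). Bambi, a decoy receptor without a kinase domain, had 0.20 and Tgfbr2, the type II receptor of TGF-β, 0.10 (limma adjusted p = 0.602 and 0.771). Bambi became -0.02 without pair A and 0.41 without pair B (limma adjusted p = 0.0222). Tgfbr2 became -0.06 without pair A and 0.26 without pair B, and was -0.02 with quantile normalisation.

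Of the tested genes in the wider lists, 2 inhibitors of SMAD signalling had the largest log2 differences in favour of HF. Smad6, an inhibitory SMAD that acts mainly on bone morphogenetic protein signals, was at 2871, 4639, 6805 and 6968 in HF 1 to HF 4 and 4134, 2830.2, 1882 and 2021 in LF 1 to LF 4. HF 1 lay below LF 1, and HF 3 and HF 4 were far above all LF libraries. The log2 difference was 0.96 (limma adjusted p = 0.248, DESeq2 adjusted p = 0.0363), and it was 1.36 without pair A (limma adjusted p = 0.0179) and 0.55 without pair B (0.194). Smurf1, a ubiquitin ligase that marks receptors and SMAD proteins for degradation, did not overlap, at 664 to 1030.3 in HF and 473 to 595 in LF. Its log2 difference was 0.59 (limma adjusted p = 0.179, DESeq2 adjusted p = 0.0226), and it was 0.66 without pair A (limma adjusted p = 0.0610) and 0.53 without pair B (0.0445). Ppm1a, a phosphatase of SMAD2 and SMAD3, had 0.30 (limma adjusted p = 0.460). In this list 14 of 15 genes were tested, 12 were higher on average in HF and the median was 0.16, against 9 with 0.08 without pair A and 12 with 0.18 without pair B. Smad7, the inhibitory SMAD of the activin and TGF-β branch, had 0.25 (limma adjusted p = 0.556), and Smad4, the shared partner, had 0.01 (limma adjusted p = 0.975), which was -0.01 without pair A.

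Genes known to be induced through SMAD2 and SMAD3 did not share a direction. All 18 were tested, 9 were higher and 9 lower on average in HF, and the median was 0.02. Fn1, fibronectin, had -0.58 and Ltbp2, a matrix protein, -0.45 (limma adjusted p = 0.482 and 0.488), and their exons overlap Apol7d and D030025P21Rik on the other strand. Fibroblasts express both genes too, and the fibroblast and mesothelial markers, given above, had 0 of 6 with a higher mean log2 value in HF. Their part in these values was not tested. Without pair A, 5 of 18 were higher with a median of -0.20, and without pair B 12 of 18 with 0.16.

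Without pair A, limma called 3 of the 43 wider genes, all higher in HF (Pcsk5, Smad6 and Nedd4l, chosen after their values were seen), where 3.09% of all genes were called higher. Without pair B it called 8 higher and 2 lower, where 14.0% of all genes were called higher and 6.02% lower. Since the pairs were picked from these libraries, these calls and the p values without a pair are a description only.

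**Figure D4:**
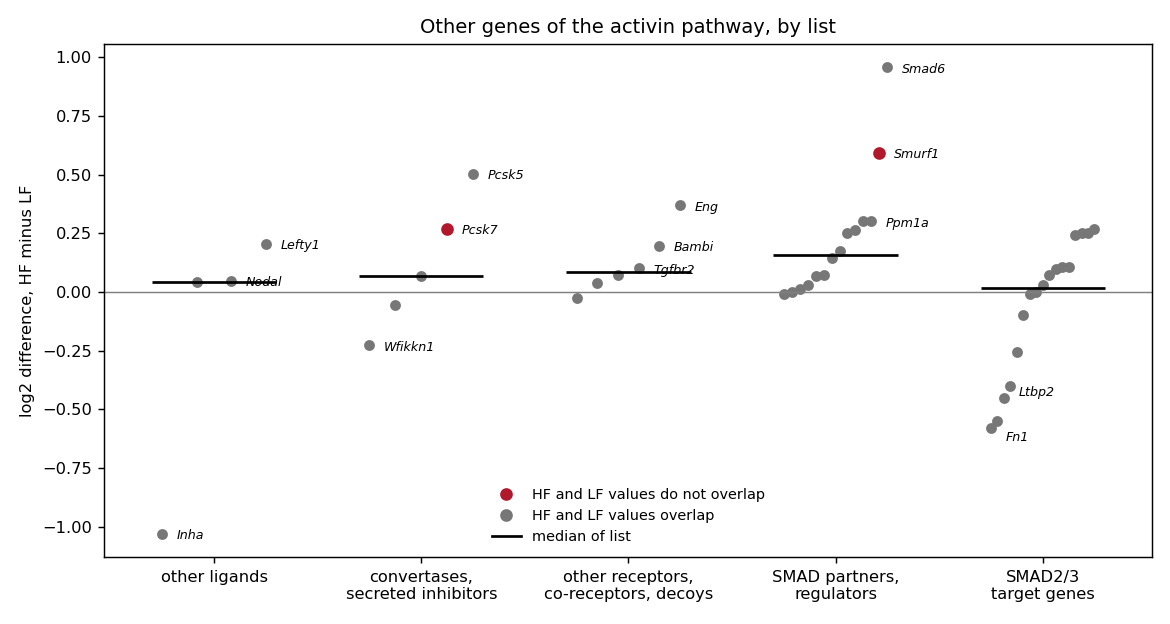
Log2 difference, HF minus LF, of the tested genes of each wider list, with the median of the whole list as a black line, 1 target gene not drawn, and genes whose groups do not overlap in red. Smad6 at 0.96 and Smurf1 at 0.59 lie highest, Inha at -1.03 lies lowest, and the target genes spread on both sides of 0.

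The profile of Inhbb over the 8 libraries was set beside 10909 other tested genes by the root mean square difference of log2 values centred per gene. These genes had a mean of 50 normalised counts or more, and those named only by a clone, an accession or as a pseudogene were left out. The nearest were Cthrc1 (0.49), a secreted protein of matrix and vessel wall, Tcf23 (0.52), a helix-loop-helix factor, Tmc7 (0.52), a membrane protein, Angptl4 (0.55), the secreted inhibitor of lipoprotein lipase, and Dhh (0.56), the ligand desert hedgehog. The median distance over all genes compared was 0.94. Cthrc1 was at 202, 312, 287 and 237 in HF 1 to HF 4 and at 120, 135, 145 and 106 in LF 1 to LF 4. It shared with Inhbb the highest value in HF 2, the highest LF value in LF 3 and the lowest in LF 4. Tcf23 did not share the maximum in HF 2, since its highest HF value was in HF 3 (222), and Tmc7 had its lowest value in LF 1 (23.2). Log2 differences of the 5 were between 1.02 and 1.37, smaller than that of Inhbb, and all separated the groups, which follows from choosing them by this distance. Exons of Dhh overlap Rhebl1 on its own strand.

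**Figure D5:**
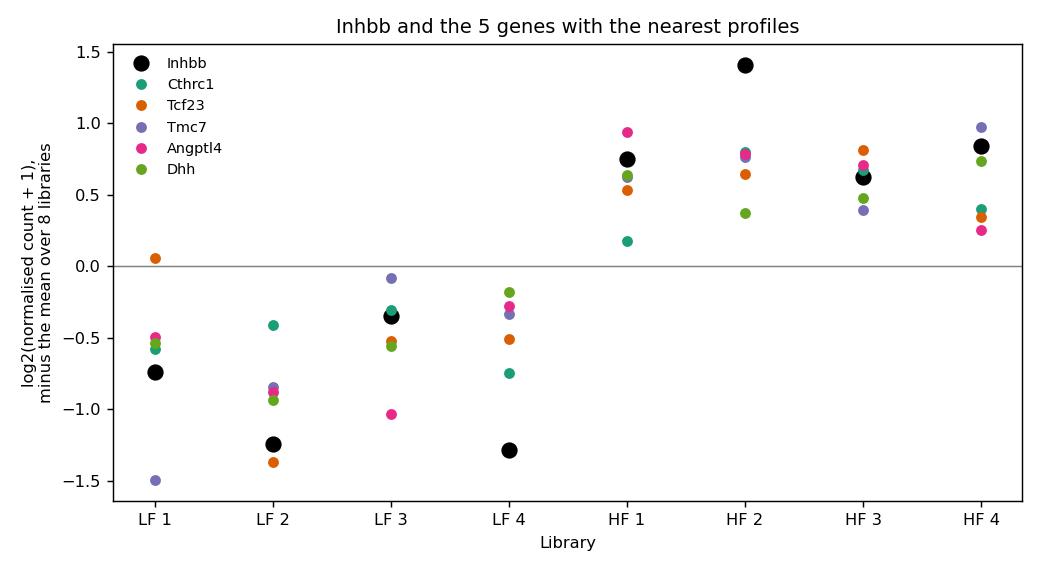
Log2 of normalised count plus 1, minus each gene's mean over the 8 libraries, for Inhbb (black) and the 5 genes with the nearest profiles. The genes lie above 0 in every HF library and, other than Tcf23 in LF 1, below 0 in every LF library, and Inhbb has the widest range of the 6 in HF, with its top in HF 2.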

How the data were processed

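TRIzol LS RNA was turned into SMART-Seq libraries (full-length cDNA amplification), per the labels' protocols. STAR 2.6.1b, featureCounts 2.0.0 and DESeq2 1.24.0 appear in the submitters' processing notes. The sources used here give no build, annotation or strand setting. In 1 table, the authors deposited normalised counts, a signal equal to whole reads divided by a size factor per library, and, per the file headers, log2 fold changes (HF over LF), their error, the Wald score and p-values before and after adjustment, of which only the log2 fold change of Inhbb is used. Whole reads were recovered (100% of values within 0.01 reads), which gives the depth per library. The factor of LF 3, 0.996, is so close to 1 that the step was read from the decimals.

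All 34899 gene IDs matched GENCODE M21 (GRCm38), used for exon lengths and overlaps. Promoter windows are from RefSeq (GRCm38.p6), where 8 of the 10 genes matched; Fst and Smad2 have no entry. The 17067 genes that reached 10 normalised counts in 4 or more libraries were fitted with limma 3.58.1 on log2(value + 1), with a mean-variance trend, two-sided, adjusted by Benjamini-Hochberg, with 12.3 degrees of freedom. Fold changes are on that scale and understate changes of low genes. edgeR 4.0.16 and DESeq2 1.42.0 served as alternatives on the recovered reads. Levels per kilobase were compared on log2(value + 0.1). Scripts were tested on simulated counts. Other settings were other pseudocounts, filters and scalings, the replicate number as a block, and leaving out libraries.

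The members and lists were chosen with earlier results of these data known. The genes named are the 10, up to 3 per list with the smallest unadjusted p, those of a list without overlap between groups, and the 5 nearest to Inhbb; others are named to show a role. Of the genes under this rule, 1 is not reported here, though it stays in the counts and medians of its list. Labels do not say that libraries are separate mice beyond the design text's 4 per group, and without molecular identifiers, amplified reads overstate the number of molecules. 0 columns of per-sample values lacked a sample.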

Additional observations from a re-analysis of the deposited data

How the results depend on the processing

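The number of genes called at an adjusted p under 0.05 was 0 with limma and all 8 libraries, and 0 with edgeR, the pseudocounts 0.5 and 5, a mean of at least 50, TMM rescaling and quantile normalisation. It was 326 with DESeq2, 1 without a filter (Inhbb), 641 without LF 1 and LF 2, 3421 when LF 3 and LF 4 were left out, and 0 to 1 when a single library was left out (Lilr4b without LF 2, Lipe without LF 4). The call of Inhbb comes from the contrast that chose it, and nothing is read from that call. The Inhbb log2 difference was between 1.64 and 1.99 over 19 other settings, all with HF higher. The median over the members was between -0.03 and 0.18. The count of neighbouring pairs that differed per kilobase was 3 with all libraries and with the longest transcript as the length, 0 without LF 1 and LF 2, 0 when LF 3 and LF 4 were left out, and 0 to 4 when a single library was left out. With 6 libraries the smallest exact p is 0.0312, so these tests have too few libraries. With the replicate number as a block, limma called 0 genes and the Inhbb log2 difference was 1.81. Same-numbered libraries had correlations of deviations of 0.11, -0.22, -0.14 and 0.18, so the numbers do not pair the libraries. Depth limits Inhba, Inha, Nodal, Fstl3 and Fst, each with means under 50 normalised counts in both groups.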

Other observations

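Promoter windows of the other members with a RefSeq entry held more CpG than that of Inhba. The 250-base windows held 49 CpG dinucleotides for Acvr2a, 46 for Acvr1, 42 for Acvr1b, 24 for Acvr2b, 22 for Fstl3 and 22 for Smad3, against a median of 6 over all 32851 windows. Inhba, the scarcest transcript of the 10 per kilobase, had the fewest CpG of the 8 members with an entry. In the order of CpG given above, the mean levels per kilobase were 185, 56.7, 116, 62.4, 8.56 and 14.5. Inhbb, with 21 CpG, was at 42.8. A relation of CpG to level was not tested.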
